A study of Homo sapiens with 6 samples.

Results

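The RNA abundance of 9 target genes of the transcription factor p53 was measured in DLD-1 cells that were, or were not, treated to degrade the nuclear pore protein TPR. The genes were CDKN1A, MDM2, GDF15, BBC3, SESN1, TP53INP1, PHLDA3, FAS and BTG2, taken by symbol from the 58051 genes of the count table. None of them was chosen by a cutoff on its values here, but the list was set with earlier results of these data known. All 9 were found once, and 7 of them passed the filter that kept 16974 genes for testing. TP53INP1 and PHLDA3 did not pass, since fewer than 3 libraries held them above 1 CPM (counts per library scaled to a common size). The filter scaled by library size alone, and the levels given below are scaled after TMM normalisation.

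DLD-1 is a human colorectal adenocarcinoma line, and it is known to carry mutant p53. Both alleles of TPR carried a degron that auxin makes active, fused to the fluorescent protein NeonGreen (AID-NeonGreen-TPR), and the TIR1 ligase that auxin directs to the degron was made from the RCC1 locus. All 6 cultures received 200 nM Leptomycin B (LMB) for 3 h. The 3 cultures of the LMB group received nothing else, and the 3 cultures of the LMB+auxin group also received 1 mM auxin during the last 2 h, which leads to destruction of the TPR protein. These times follow the incubation times recorded for each sample, while the sample titles of both groups name 2 h alone. Auxin acts on the protein, so the TPR RNA is no check of the depletion. No library without LMB and none of untagged cells with auxin was analysed here. The effect of LMB on p53 targets was therefore not measured, and a response to auxin itself cannot be told apart from one to TPR loss.

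p53 is kept low in unstressed cells by MDM2, a ubiquitin ligase that p53 itself induces, so that the pair form a feedback loop. When DNA damage or other stress releases p53, it binds paired half-sites in DNA and raises genes that stop the cell cycle, such as CDKN1A, genes that favour cell death, such as BBC3 and FAS, and genes of stress defence, such as SESN1. p53 leaves the nucleus through CRM1, the export receptor that LMB blocks, and LMB is known to hold p53 in the nucleus. Several of these genes, GDF15 among them, also answer to signals that do not pass through p53.

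The total count per library ran from 28261903 to 35992425. Libraries with the same replicate number deviated together from their group means. The correlation of these deviations across the tested genes was 0.577, 0.747 and 0.335 for replicates 1, 2 and 3. Between libraries of the 2 groups with different numbers it ran from -0.622 to 0.177, with 0.177 and 0.175 between replicates 1 and 3. Deviations from a shared group mean depend on each other, so these correlations are not independent. A second fit, called the block fit here, treated the replicates as pairs. Of 10 colon epithelial markers, 8 were above 1 CPM on average, while LGALS4 and CDX1 were below it. Their summed level was 7687 to 7753 CPM in LMB and 7533 to 8140 CPM in LMB+auxin. Of 8 markers of blood, stromal and endothelial cells, 6 were below 1 CPM on average, and CD68 and VWF were the exceptions. Their summed level was 10.1 to 10.6 CPM in LMB and 8.78 to 10.6 CPM in LMB+auxin.

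The DNA that p53 recognises is shown first, because it is the feature by which these genes are known. A p53 element is a pair of half-sites of 10 bases each, and each half-site has a core that begins with C, ends with G and holds a pair of A or T bases, set between purines on the left and pyrimidines on the right. A window of 2500 bases on each side of the start of the canonical transcript was searched in GRCh38 for 2 half-sites without a gap, with both cores intact and at most 2 mismatches elsewhere. The motif reads alike on both strands. Such a match was present in 287 of 12663 tested protein-coding genes, or 2.27%, and in 4 of the 9 targets. Each of the 4 holds a single match, printed on the plus strand, which is the strand of all 4 genes, with the cores in capitals.
CDKN1A, chr6:36676449-36676468: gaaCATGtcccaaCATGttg
GDF15, chr19:18385308-18385327: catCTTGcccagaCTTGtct
FAS, chr10:88991309-88991328: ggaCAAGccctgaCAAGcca
BTG2, chr1:203303642-203303661: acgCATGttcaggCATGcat
The matches of CDKN1A, GDF15 and BTG2 begin 2265, 850 and 1877 bases upstream of the canonical start, and that of FAS lies 511 bases downstream of it, in an intron. The CDKN1A match spans the first base of the annotated gene, and the GDF15 match lies within the annotated gene. Each has 2 mismatches to the element. A match describes these letters only, and binding of p53 was not measured. For MDM2, BBC3, SESN1, TP53INP1 and PHLDA3 no match by this rule was found in this window. The rule leaves unseen any element with a gap, an altered core base or more than 2 mismatches, and any element farther away.

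Levels differed between the genes far more than between the groups. Per kilobase of canonical transcript, averaged over the 6 libraries, the level was 147 CPM for GDF15, 32.8 for MDM2, 5.00 for BBC3, 3.85 for CDKN1A, 2.73 for FAS, 2.56 for BTG2, 1.86 for SESN1, 0.285 for PHLDA3 and 0.154 for TP53INP1. GDF15 was above MDM2, and MDM2 above BBC3, in all 6 libraries, with ranges that did not overlap. From BBC3 to SESN1 the range of each gene overlapped that of the next one in order, so these neighbours were not separated by their ranges, although BTG2 was above SESN1 in 6 of 6 libraries. GDF15 was above 95.6% of the tested genes on this scale and MDM2 above 83.0%, while CDKN1A was above 33.4%. The order rests on the canonical transcript. Over the union of all annotated exons, which for FAS is far longer than its canonical transcript, FAS was at 0.345 CPM per kilobase.

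**Figure D1:**
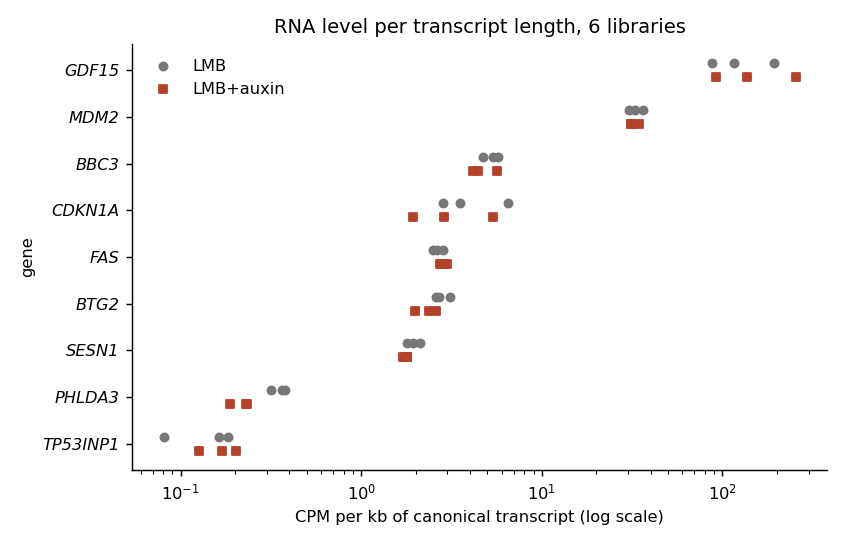
RNA level of the 9 p53 targets in CPM per kilobase of canonical transcript, on a log axis, with 1 point per library (grey circles for LMB, red squares for LMB+auxin, 3 libraries each). GDF15 and MDM2 lie above the rest, PHLDA3 and TP53INP1 below it, and the points of the groups overlap for all genes but BTG2 and PHLDA3.

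The question put to the 9 genes was whether p53 targets move when TPR is degraded while CRM1 is blocked. Without the block, edgeR called 0 of the 7 tested genes. A call needed an adjusted p under 0.05 together with a 1.3-fold difference in either direction. Among all 16974 tested genes 1 was called, or 0.00589%, and DESeq2 and limma-voom also called 0 of the 7. At an unadjusted p under 0.05 there were 0 of the 7, beside 4.37% of all tested genes. With the block edgeR called 0 of the 7, beside 1.18% of all tested genes, and DESeq2 with the block called 0. In that edgeR fit 3 of the 7 were at an unadjusted p under 0.05, as were 19.9% of all tested genes. By the adjusted p alone, 2 of the 7 passed in the block fit, GDF15 higher and CDKN1A lower. Among all tested genes 4.36% passed, 1.11% higher and 3.25% lower. Of the 7, 4 were lower with auxin in 3 of 3 pairs (CDKN1A, BBC3, SESN1 and BTG2), as were 20.5% of all tested genes, and 1 was higher in 3 of 3 pairs (GDF15), as were 21.4%. The groups did not overlap for 1 of the 7, BTG2, and for 11.5% of all tested genes. The median log2 fold change of the 7 was -0.14, beside -0.0027 for all tested genes, and 5 of the 7 values were below 0. In the fit without the block the sign of this median rested on 1 library. It was 0.036 without LMB replicate 2 and ran from -0.20 to 0.04 when each library was left out in turn. The block fit gave a median of -0.14, which ran from -0.17 to -0.07 when each pair was left out.

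**Figure D2:**
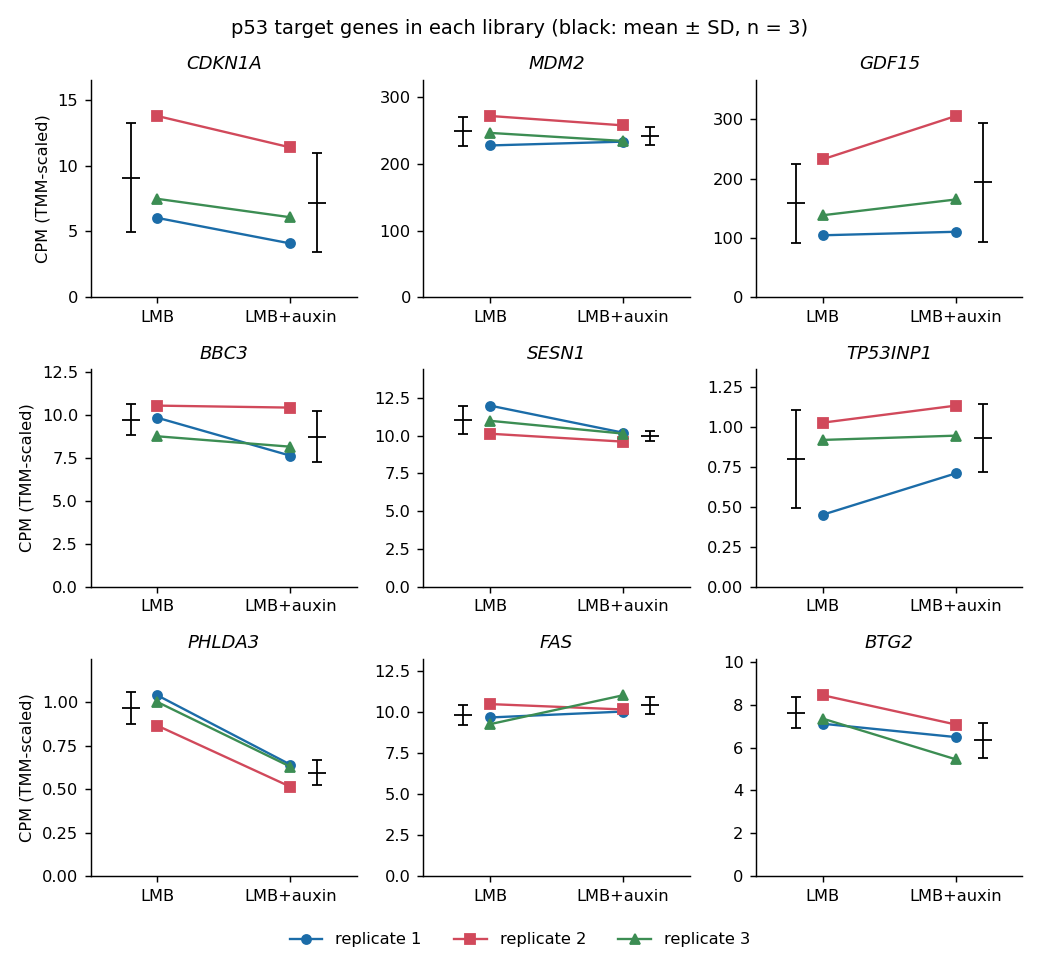
CPM of each p53 target in LMB and LMB+auxin, with a line for each replicate pair (circles for replicate 1, squares for 2, triangles for 3) and the mean ± SD of each group in black (n = 3). Replicate 2 is the highest library in both groups for CDKN1A, MDM2, GDF15, BBC3, TP53INP1 and BTG2, by the widest margin for CDKN1A and GDF15. All 3 lines fall for CDKN1A, BBC3, SESN1, BTG2 and PHLDA3, and all 3 rise for GDF15 and TP53INP1.

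GDF15 (ENSG00000130513, chromosome 19, 18374731 to 18389176, plus strand, 2 exons in the canonical transcript) encodes a secreted stress cytokine of the TGF-beta family. It was at 104.5, 233 and 138 CPM in LMB replicates 1, 2 and 3, and at 110.4, 306 and 165 CPM in LMB+auxin replicates 1, 2 and 3. The groups overlapped widely, but within each pair the auxin library was higher, by 1.06-fold at the least and 1.31-fold at the most. The group means were 158 ± 66.5 CPM and 194 ± 101 CPM (SD, n = 3 each). Without the block the log2 fold change was 0.29 ± 0.41 (standard error), its 95% interval was -0.67 to 1.25 and its edgeR adjusted p was 0.958. The block fit gave 0.25 ± 0.05, an interval of 0.15 to 0.34 and an edgeR adjusted p of 2.1e-04. DESeq2 with the block gave an adjusted p of 0.00678. The edgeR interval of the block fit lies below the log2 value of a 1.3-fold change, 0.379. The log2 ratios within pairs 1, 2 and 3 were 0.08, 0.39 and 0.25, so pair 2 lay above that limit. The interval and the adjusted p draw on variance pooled over genes, and do not measure the spread of GDF15 between pairs alone. The log2 fold change of that fit was 0.33 without pair 1 (adjusted p 1.6e-08), 0.18 without pair 2 (0.175) and 0.25 without pair 3 (0.113). Without LMB+auxin replicate 2 alone, in the fit without the block, the log2 fold change was -0.20.

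CDKN1A (ENSG00000124762, chromosome 6, 36676460 to 36687337, plus strand, 3 exons) encodes p21, the inhibitor of cyclin-dependent kinases through which p53 halts the cell cycle. It was at 6.03, 13.8 and 7.48 CPM in LMB replicates 1, 2 and 3, from 174, 430 and 269 counts. In LMB+auxin it was at 4.09, 11.4 and 6.08 CPM, from 121, 332 and 193 counts. Each auxin library was below its own pair, at 0.678 to 0.826 of the LMB level, although the groups overlapped because replicate 2 was high in both. The means were 9.10 ± 4.12 CPM and 7.19 ± 3.78 CPM (SD, n = 3 each). The log2 fold change without the block was -0.34 ± 0.41 (edgeR adjusted p 0.957, 95% interval -1.30 to 0.61). In the block fit it was -0.35 ± 0.10 (edgeR adjusted p 0.0158, interval -0.54 to -0.16), just short of the 1.3-fold limit of 0.379. DESeq2 with the block gave an adjusted p of 0.356. The adjusted p of the edgeR block fit was 0.0952, 0.0890 and 0.124 when pair 1, 2 or 3 was left out, and the log2 fold change then ran from -0.41 to -0.28. Without LMB replicate 2 alone, in the fit without the block, it was 0.09.

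GDF15 and CDKN1A therefore shared a pattern across replicates and moved in opposite directions within pairs. CDKN1A in replicate 2 was 2.04 times the mean of replicates 1 and 3 in LMB and 2.24 times it in LMB+auxin, and GDF15 was 1.92 and 2.22 times it. The within-group SD of log2 CPM was 0.685 for CDKN1A and 0.668 for GDF15, above 99.8% of the tested genes in each case, while the median over all tested genes was 0.136. No other tested member had an SD above 0.193. What set replicate 2 apart was not tested.

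BTG2 (ENSG00000159388, chromosome 1, 203305491 to 203309602, plus strand, 2 exons) encodes an antiproliferative protein that recruits the CCR4-NOT deadenylase to mRNAs. It was at 7.105, 8.43 and 7.34 CPM in LMB and at 6.48, 7.07 and 5.45 CPM in LMB+auxin, replicates 1 to 3 in order. All 3 auxin libraries lay below all 3 LMB libraries, by a narrow margin. The log2 fold change was -0.27 ± 0.13 (95% interval -0.57 to 0.03, edgeR adjusted p 0.954). The block fit gave -0.27 ± 0.10 (interval -0.47 to -0.08), with an unadjusted p of 0.0067 and an edgeR adjusted p of 0.0942, which did not pass.

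MDM2 (ENSG00000135679, chromosome 12, 68808177 to 68845544, plus strand, 11 exons) gave the narrowest interval of the 7. It was at 228, 272 and 247 CPM in LMB replicates 1, 2 and 3 and at 234, 258 and 235 CPM in LMB+auxin. It was higher with auxin in pair 1 and lower in pairs 2 and 3. The block fit gave a log2 fold change of -0.04 with a 95% interval of -0.13 to 0.05 (edgeR adjusted p 0.664), so a change of 1.3-fold either way lay outside the interval. MDM2 shares 14.7% of its exon bases with other genes of the table, among them a pseudogene and an antisense transcript that lie wholly within it. Their mean counts were 755 and 1432, beside 7636 for MDM2, and an overlap of this kind leaves the origin of some reads uncertain.

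**Figure D3:**
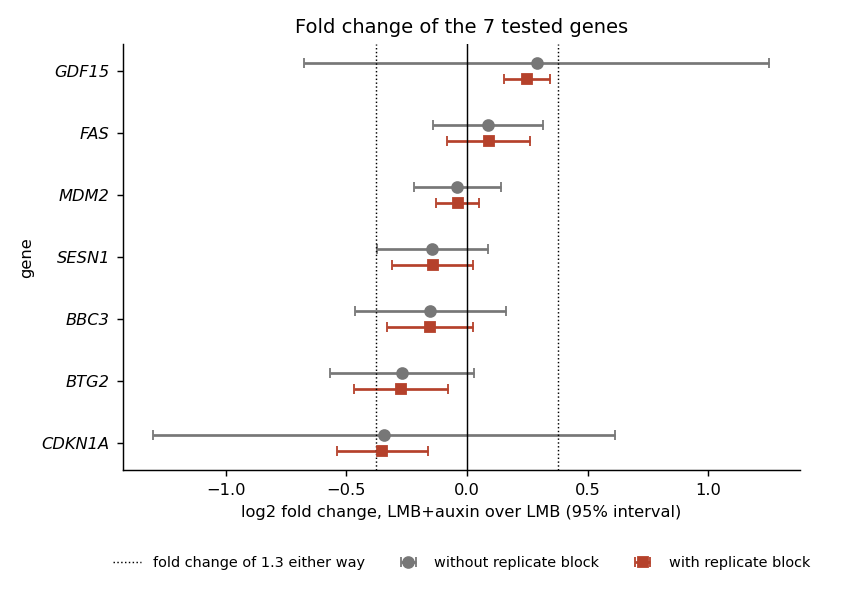
Log2 fold change of LMB+auxin over LMB with its 95% interval for the 7 tested p53 targets, without the replicate block (grey circles) and with it (red squares). Dotted lines mark a fold change of 1.3 either way. With the block the intervals of GDF15, BTG2 and CDKN1A lie to 1 side of 0, and the points of all 7 genes lie within the dotted lines.

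The genes of cell death were BBC3, FAS, PHLDA3 and TP53INP1. BBC3 (ENSG00000105327, chromosome 19, 47220822 to 47232766, minus strand, 4 exons) encodes PUMA, a BH3-only protein that sets off mitochondrial apoptosis. It was at 9.84, 10.55 and 8.76 CPM in LMB and at 7.63, 10.4 and 8.16 CPM in LMB+auxin, replicates 1 to 3 in order. It was lower in 3 of 3 pairs and the groups overlapped, with a log2 ratio of -0.37 in pair 1 and -0.02 in pair 2. The block fit gave -0.15 with a 95% interval of -0.33 to 0.02 (edgeR adjusted p 0.329). FAS (ENSG00000026103, chromosome 10, 88953813 to 89029605, plus strand, 9 exons), the death receptor of the CD95 pathway, was at 9.67, 10.5 and 9.26 CPM in LMB and at 10.0, 10.2 and 11.0 CPM in LMB+auxin. It was higher in 2 of 3 pairs, with overlapping groups and a block fit value of 0.09 (interval -0.08 to 0.26, edgeR adjusted p 0.590).

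PHLDA3 (ENSG00000174307, chromosome 1, 201464278 to 201469237, minus strand, 2 exons) encodes a pleckstrin homology protein that restrains AKT. It had 30, 27 and 36 counts in LMB replicates 1, 2 and 3 and 19, 15 and 20 counts in LMB+auxin, or 1.04, 0.866 and 1.00 CPM against 0.642, 0.515 and 0.630 CPM. All 3 auxin libraries lay below all 3 LMB libraries, and the ratio within pairs was close to constant, from 0.595 to 0.629. These counts were too low for the filter. With no filter on low counts the log2 fold change was -0.70 ± 0.30, where edgeR gave an adjusted p of 0.874 from an unadjusted p of 0.0194. With the block and no filter, a fit added after the data were seen, it was -0.70 ± 0.26 with an adjusted p of 0.183. PHLDA3 had the largest change in proportion among the 9 genes and the second lowest level, and neither of these fits called it. A long noncoding RNA on the same strand shares 18.4% of its exon bases, with a mean count of 2.333 beside 24.5.

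TP53INP1 (ENSG00000164938, chromosome 8, 94925972 to 94949378, minus strand, 4 exons), whose protein promotes the death response of p53, was the lowest of the 9 genes. It had 13, 32 and 33 counts in LMB and 21, 33 and 30 counts in LMB+auxin. The auxin library was higher in 3 of 3 pairs after scaling, the groups overlapped, and the log2 fold change with no filter was 0.20 with a 95% interval of -0.35 to 0.75. A 1.3-fold increase lay within that interval, so these counts could not resolve one. NDUFAF6, on the opposite strand, shares 3.99% of its exon bases and had a mean count of 564 beside 27.0.

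SESN1 (ENSG00000080546, chromosome 6, 108984309 to 109094846, minus strand, 10 exons) encodes sestrin 1, an inhibitor of mTORC1 signalling under stress. It was at 12.0, 10.1 and 11.0 CPM in LMB replicates 1, 2 and 3, and at 10.2, 9.61 and 10.1 CPM in LMB+auxin. It was lower in 3 of 3 pairs. Replicate 2 was its lowest library in both groups, as for PHLDA3, whereas it was the highest for CDKN1A, MDM2, GDF15, BBC3, TP53INP1 and BTG2. The log2 fold change of the block fit was -0.14 with a 95% interval of -0.31 to 0.03 (edgeR adjusted p 0.338). In bulk libraries such as these, fewer cells expressing a gene and less RNA per cell cannot be told apart, here or for any gene above.

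Further genes of the p53 network were examined as lists. Beyond the 9 genes, 31 of 32 other p53 targets were tested, with SPATA18 below the filter. Their median log2 fold change was 0.01, with 18 above 0 and 13 below it. edgeR called 0 of them in either fit. At an unadjusted p under 0.05 there were 5 of the 31 in the fit without the block and 10 in the block fit, beside 4.37% and 19.9% of all tested genes. By the adjusted p alone the fit without the block passed 0 of the 31. The block fit passed 6 of the 31, or 19.4%, beside 4.36% of all tested genes, with 3 higher and 3 lower. The genes that passed thus lay on both sides of 0.

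Among targets of growth arrest and feedback (8 genes, median -0.05), GADD45A, a stress protein that slows the cell cycle, was at 18.1, 18.2 and 20.9 CPM in the LMB+auxin libraries and averaged 15.5 ± 0.572 CPM (SD, n = 3) with LMB alone (block log2 fold change 0.30, edgeR adjusted p 0.00636). PLK2, a polo-like kinase, had a block log2 fold change of 0.22 (edgeR adjusted p 0.0017), and TP53I13 one of -0.21 (0.0309). For all 3 genes the groups did not overlap. Among apoptosis genes (10 genes, median -0.01), PMAIP1, which encodes the BH3-only protein NOXA, was at 29.4, 37.1 and 26.6 CPM in LMB and 23.9, 25.2 and 23.7 CPM in LMB+auxin. Its block log2 fold change was -0.35 with an edgeR adjusted p of 1.4e-04, and PIDD1, which encodes an adaptor of caspase-2, followed at -0.25 (0.0234). Both were lower in 3 of 3 pairs with groups that did not overlap, while TP53AIP1 was at 0.12 (0.686). Of 4 DNA repair genes (median 0.06) none passed the adjusted p by edgeR, with 0 at an unadjusted p under 0.05 in either fit. POLH was at 0.13, RRM2B at 0.10 and XPC at 0.02 in the block fit. Of 9 tested metabolic and survival genes (median 0.03), TIGAR, a regulator of glycolysis, was at 0.22 (edgeR adjusted p 0.0359), FDXR at -0.16 (0.203) and FUCA1 at 0.09 (0.277).

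**Figure D4:**
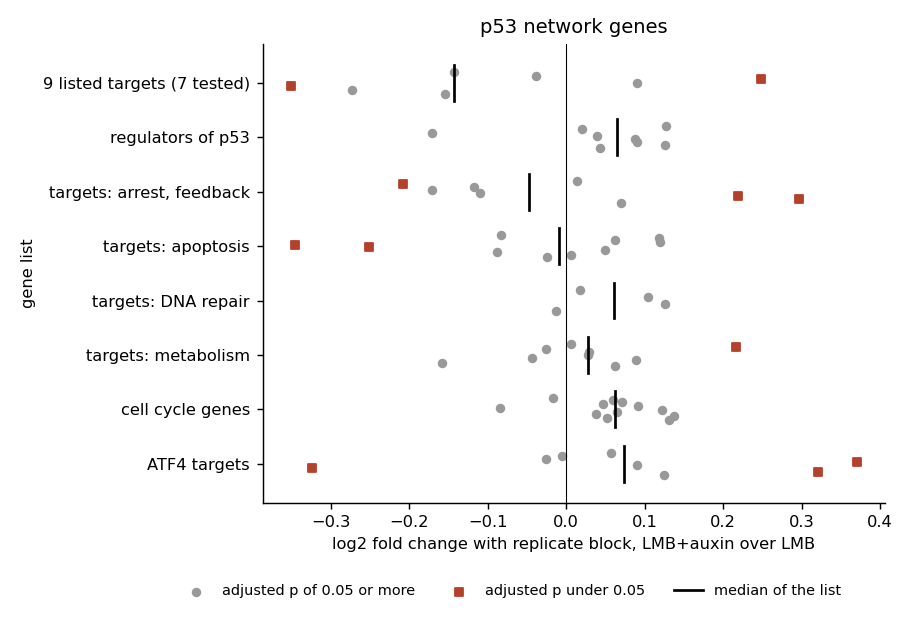
Log2 fold change in the block fit for each tested gene of the p53 network, by list, with the list median as a black bar. Red squares passed an adjusted p under 0.05 and lie on both sides of 0, and the 7 tested members have the lowest median of the 8 lists.

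Upstream of p53, 0 of 8 regulators passed the adjusted p in either edgeR fit, with 0 and 3 at an unadjusted p under 0.05 (4.37% and 19.9% of all tested genes), and the median log2 fold change was 0.07. The phosphatase PPM1D, itself a p53 target, was at -0.17 in the block fit (edgeR adjusted p 0.132), the deubiquitinase USP7 at 0.13 (0.0834) and the checkpoint kinase ATR at 0.13 (0.106). Downstream, 12 cell cycle genes that p53 is known to lower through p21 and the DREAM complex had a median of 0.07. In that list 10 values were above 0 and 2 below, and edgeR passed 0 of the 12 in either fit, with 0 and 3 at an unadjusted p under 0.05, beside the same shares of all tested genes. BUB1 (0.14), AURKA (0.13) and CCNB2 (0.12) had the largest values, with edgeR adjusted p of 0.0679, 0.101 and 0.127 in the block fit.

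GDF15 is also a target of ATF4 in the integrated stress response, so 8 other ATF4 targets were set beside it. Their median log2 fold change was 0.08, and edgeR called 0 of the 8 in either fit. By the adjusted p alone 3 of the 8 passed in the block fit, beside 4.36% of all tested genes, and 0 passed without the block. At an unadjusted p under 0.05 there were 2 without the block and 4 with it, beside 4.37% and 19.9% of all tested genes. PPP1R15A, the phosphatase subunit that reverses the response, was at 155, 140 and 171 CPM in LMB and 202, 188 and 211 CPM in LMB+auxin (block log2 fold change 0.37, edgeR adjusted p 1.4e-09). ATF3 was at 0.32 (0.0465) and CHAC1 at -0.32 (0.0124). In the edgeR fit without the block the adjusted p was 0.89 for PPP1R15A and 0.954 for ATF3 and CHAC1. The groups did not overlap for PPP1R15A and ATF3 and overlapped for CHAC1.

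Among the 5 protein-coding genes whose log2 CPM followed GDF15 most closely over the 6 libraries were ZNF704, ARMH3 and STAT5B, with Pearson coefficients of 0.9965, 0.9964 and 0.9948. ZNF704 was at 39.9, 54.7 and 45.6 CPM in LMB+auxin replicates 1, 2 and 3, and its highest LMB library was also replicate 2, at 51.7 CPM, as for GDF15. Among the 5 that followed CDKN1A most closely were HERPUD2, ACADS, RNPEPL1 and RPL18, at 0.991 to 0.994. Many genes share the shape of this pattern, since 966 of 9567 genes compared had a coefficient above 0.9 with GDF15 and 836 of 9568 with CDKN1A. The coefficient does not measure how large the differences between libraries were. The 6 points are 3 replicate pairs, so the likeness describes these libraries.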

How the data were processed

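The authors sequenced ribosome-depleted total RNA, with a stranded kit, from 3 independent biological replicates per group. Per the labels and methods, the authors aligned reads with STAR to GRCh38 and counted them per Ensembl gene with featureCounts. The submitters' processing notes list STAR 2.6.1c and featureCounts 1.5.2. The deposited values are raw counts without normalization, and the strand setting is not given in the sources used here. Symbols, found for 98.1% of genes, exons and coordinates came from GENCODE 44 on GRCh38, whereas counting used Ensembl release 87.

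Genes above 1 CPM by library size alone in at least 3 of 6 libraries entered edgeR 4.0.16 in R 4.3.3. The fit used TMM scaling and robust quasi-likelihood. Benjamini-Hochberg adjustment ran over all tested genes. A gene was called where the adjusted p was under 0.05 and the difference reached 1.3-fold. Standard errors are the log2 fold change over the square root of F, and intervals cover 95%. Both draw on variance pooled over genes, so they do not measure the spread of 1 gene between its replicates alone. DESeq2 1.42.0 and limma 3.58.1 served as alternatives. The authors used an earlier version of DESeq2. The replicate block was an alternative to the main fit without it. Same-numbered libraries deviated together in every pair, but the correlations of the pairs are not independent of each other. Levels per kilobase are CPM over the length of the Ensembl canonical transcript. p53 elements were read from the GRCh38 sequence, and promoter tables were not used.

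The members and lists were chosen with earlier results of these data known. Named genes were the 9 members, the 3 of each further list with the largest change without the block, genes sharing exons with a member, and genes among the 5 most like GDF15 and CDKN1A. Some genes that this rule names are not reported here.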

Additional observations from a re-analysis of the deposited data

How the results depend on the processing

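Of 119 recomputed log2 fold changes of the 7 tested members, 3 had the opposite sign. They were CDKN1A (0.089) and MDM2 (0.036) without LMB replicate 2 and GDF15 (-0.20) without LMB+auxin replicate 2, all without the block. Over the fits without 1 library CDKN1A ran from -0.84 to 0.09, MDM2 from -0.10 to 0.04 and GDF15 from -0.20 to 0.68. BBC3, SESN1, FAS and BTG2 kept their sign in all 17 alternatives. The median of the 7 ran from -0.20 to 0.04 over fits without the block that left out 1 library, and it was 0.036 without LMB replicate 2. Over the block fits without a pair it ran from -0.17 to -0.07. No alternative called a member. Passing the adjusted p depended on the replicate block. With it 2 members passed by edgeR, 1 by DESeq2 and 2 with no filter on low counts (a fit chosen after seeing the data), and 0 to 1 passed when a pair was left out (2 to 4 at an unadjusted p under 0.05), GDF15 without pair 1 being the 1.

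Among all tested genes, the count of calls was 201 with the replicate block, 11 by DESeq2, 31 by DESeq2 with the block, 39 with no filter, 211 with no filter and the block, and 0 by edgeR under library size alone (737 at an unadjusted p under 0.05). The fits without 1 library gave 0 to 5 (378 to 1519 at an unadjusted p under 0.05), and the block gave 141, 160 and 137 without pair 1, 2 and 3. By the adjusted p alone the counts were 740, 11, 93, 47, 636 and 0 in the same order, 0 to 5 without 1 library and 465, 345 and 168 for the block without pair 1, 2 and 3. Of 57 other network genes edgeR called 0 without the block (7 at an unadjusted p under 0.05), and 0 to 2 in the block fits without a pair, PMAIP1 and PPP1R15A being the 2 without pair 3. The causes were not tested. Low counts limit PHLDA3 and TP53INP1.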
